A study of Arabidopsis thaliana with 8 samples.

Results

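Transcripts of type-A cytokinin response regulators were followed through sulfate starvation and resupply in Arabidopsis seedlings. The members were ARR4 (AT1G10470), ARR5 (AT3G48100), ARR6 (AT5G62920), ARR7 (AT1G19050), ARR8 (AT2G41310), ARR9 (AT3G57040), ARR15 (AT1G74890) and ARR16 (AT2G40670), taken as a gene family and kept wherever a probe set could be given the gene's name. Of these 8 genes, 4 could be named on the array (ARR5, ARR6, ARR15 and ARR16), and 3 were bright enough to be tested, among 14320 probe sets with 1 named gene and 17138 probe sets tested of 22746. ARR15 and ARR16 were named by the platform annotation. ARR5 and ARR6 were named only through a table of the study that lists genes changed in experiment 1, so the fall of their signal in that experiment was a condition of their being here and is given as a description. ARR16 is also in the study's table of genes changed by starvation in both experiments, and its fall under starvation is likewise no independent evidence. ARR4, ARR7, ARR8 and ARR9 were not analysed here because no probe set was paired with them.

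The data are 8 Affymetrix ATH1 arrays, 1 for each of 4 conditions in each of 2 experiments, all from whole wild-type Col-0 seedlings shaken in liquid culture and harvested on day 9 or, for resupplied cultures, 30 min or 3 h later. FN seedlings stood in full nutrition medium with 3 mM sulfate, which was renewed on day 7. The -S seedlings were pre-grown in 150 µM sulfate and moved on day 7 to a medium with 0 µM sulfate for 48 h, and the 30' S and 3 h S seedlings were such starved cultures given 500 µM sulfate for 30 min or 3 h. The 3 last conditions shared pre-culture and starvation medium. That medium also lists less nitrate and ammonium salt than the FN medium, so in any comparison with FN sulfate and nitrogen supply cannot be told apart. The study's methods include a resupply with potassium chloride, of which no array was analysed here, so that sulfate itself and the opening and feeding of the flasks cannot be told apart in the comparisons of resupplied with starved seedlings. Each array measured RNA of whole seedlings grown many to a flask, and fewer cells that express a gene cannot be told apart from less RNA per cell.

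Cytokinins are perceived by membrane histidine kinases (the AHK receptors), and the signal passes through histidine phosphotransfer proteins (AHPs) to nuclear response regulators. Type-B regulators are transcription factors that switch on cytokinin target genes. Type-A regulators are small receiver-domain proteins without a DNA-binding output domain; many of their genes are induced by cytokinin within minutes, and their proteins dampen the same pathway. They are therefore in common use as a readout of cytokinin response. Cytokinin is known to lower the expression of root sulfate transporters, and nitrate supply is known to raise cytokinin synthesis, which makes the family of interest in both sulfate and nitrogen nutrition.

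Signals are MAS 5.0 values on a linear scale, with an array median between 41.9 and 47.6. The floor, the signal below which probe sets of an array were treated as not detected, lay between 17.2 and 20.3 in experiment 1 and between 10.9 and 13.5 in experiment 2. Fold changes were fitted with limma on log2(signal + 16), with the experiment as a block, and a gene is called where its Benjamini-Hochberg adjusted p over all 17138 probe sets was under 0.05. The leaf gene RCA (798.5 to 2148.4) and the root genes PYK10 (2701.2 to 3693.9) and EXPA7 (51.1 to 150.9) were above the floor on all 8 arrays and none was called in any of the 6 comparisons, while the shoot meristem genes WUS and CLV3 were below it on all 8. Of 18 markers listed for leaf, root, meristem and dividing cells, these 5 could be named. All 6 sulfate starvation genes examined rose in -S over FN, SULTR1;2 by 3.82 ± 0.15 on the log2 scale, beside 1.42% of all probe sets called in that comparison; all but BGLU28 were named only through the study's table of changed genes, so their rise was a condition of their being named. The number of calls in -S over FN depended on the FN arrays: 243 probe sets passed with both in the fit, 359 when the first experiment's FN array was left out and 4860 when the second's was.

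ARR16, a type-A regulator known from roots and from the stomatal lineage of the leaf, was the one member called in any comparison. Its signal was 263.3 in FN, 81.1 in -S, 56.6 in 30' S and 72.6 in 3 h S in experiment 1. In experiment 2 it was 175.7, 53.2, 62.2 and 70.8 in the same order. Both FN arrays were high and the 6 arrays of starved and resupplied seedlings were low, with no overlap. How many of all probe sets separate in this way was not counted. All 8 signals were at least 2.98 times the floor of their array. Within experiments the ratio of -S to FN was 0.308 and 0.303.

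**Figure D1:**
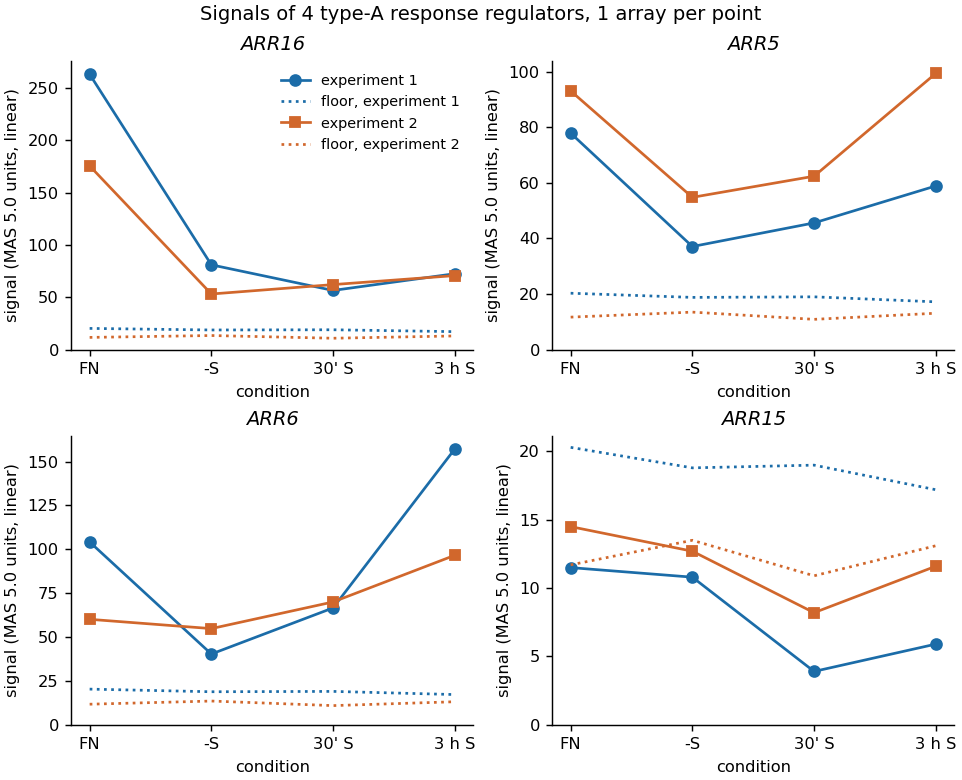
MAS 5.0 signals (linear axis from 0) of the 4 named type-A regulators in FN, -S, 30' S and 3 h S; each point is 1 array, circles and solid blue lines are experiment 1, squares and orange lines experiment 2, and dotted lines are the floors. ARR16 was high in FN only, ARR5 and ARR6 were lowest in -S and higher at 3 h S, and ARR15 was above the floor on 1 array.

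In the fit, ARR16 was lower in -S than in FN, with a log2 fold change of -1.497 ± 0.198 (SE; 95% interval -1.965 to -1.029; limma adjusted p = 0.0165), which corresponds to 0.354 of the FN level of signal + 16. The log2 fold change over FN was -1.62 ± 0.20 in 30' S (limma adjusted p = 0.0136) and -1.40 ± 0.20 in 3 h S (limma adjusted p = 0.043). These 3 comparisons share the FN arrays and are not independent of each other. Among the 17138 probe sets, ARR16 held rank 91, 81 and 82 from the lowest fold change in -S, 30' S and 3 h S over FN. After resupply it was still low: its log2 fold change over -S was -0.12 after 30 min (95% interval -0.59 to 0.35) and 0.10 after 3 h (-0.37 to 0.57), neither of them called, and over 30' S it was 0.22 at 3 h (-0.25 to 0.69). The interval for 3 h S over -S reaches up to 1.48 times the starved level of signal + 16.

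The call of ARR16 depended on which arrays were fitted. In -S over FN it was lost without either -S array (adjusted p = 0.134 and 0.17) or either 3 h S array (0.0599), in 30' S over FN without either 30' S array (0.207 and 0.0752) or either 3 h S array (0.0535), and in 3 h S over FN without any 1 array of -S (0.0927), 30' S (0.11) or 3 h S (0.629 and 0.252), while the direction was kept each time. With the methods' t-test of 2 arrays against 2, its adjusted p was 0.876, 0.786 and 0.922 for -S, 30' S and 3 h S over FN.

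ARR5, a cytokinin primary response gene whose promoter is widely used as a cytokinin reporter, had its lowest signals in starved seedlings and higher ones after 3 h of resupply, although no difference was called. Its signal was 77.9 in FN, 37.1 in -S, 45.6 in 30' S and 58.9 in 3 h S of the first experiment, and 93.1, 54.8, 62.4 and 99.4 in experiment 2. Both -S arrays were below both FN arrays and both 3 h S arrays, whereas 3 h S overlapped FN. The share of all probe sets with such a separation was not counted. The order of the conditions was -S, 30' S, 3 h S, FN in experiment 1 and -S, 30' S, FN, 3 h S in experiment 2. The neighbouring conditions -S and 30' S overlapped, with a log2 fold change of 0.18 (95% interval -0.17 to 0.54).

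The log2 fold change of -S over FN was -0.72 ± 0.15 (SE; 95% interval -1.08 to -0.37; limma adjusted p = 0.0773), and that of 30' S over FN was -0.54 ± 0.15 (adjusted p = 0.101). From -S to 3 h S it was 0.60 ± 0.15 (95% interval 0.25 to 0.96; adjusted p = 0.143), with ratios of 1.588 and 1.814 in the 2 experiments. This step shares the -S array of experiment 1, whose low signal was a condition of naming ARR5, and is not independent of it. At 3 h S the gene stood at -0.12 relative to FN on the log2 scale (-0.48 to 0.23; adjusted p = 0.681). The 3 h S over -S value stayed at 0.60 when either FN array was left out, as these arrays take part in it only through the estimate of the spread. Without the FN array of experiment 2, -S over FN was -0.85 on the log2 scale. That value rests on the FN array of experiment 1, in which the fall was a condition of naming ARR5.

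ARR6, the closest relative of ARR5 and likewise a fast cytokinin response gene, had the widest spread between -S and 3 h S of the members, again with no difference called. Its signal was 104.2 in FN, 40.3 in -S, 66.6 in 30' S and 157.2 in 3 h S in experiment 1. In experiment 2 it was 60.1, 54.8, 70.0 and 96.6. In both experiments it was higher in 30' S than in -S and higher still in 3 h S, and the 3 h S signal exceeded the FN signal of its own experiment, by 1.509 and 1.607 times. The ratio of -S to FN was 0.387 in the first experiment and 0.912 in the second. As ARR6 was named through a table of genes changed specifically in experiment 1, this contrast follows in part from the naming.

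In the fit, 3 h S over -S was 1.15 ± 0.26 on the log2 scale for ARR6 (SE; 95% interval 0.53 to 1.77; limma adjusted p = 0.12), 2.21 times the starved level of signal + 16 and rank 79 from the highest of 17138 probe sets, yet not past the adjusted threshold. The -S array of experiment 1, whose low signal was a condition of naming ARR6, is part of this step, and the ratio was 3.901 in that experiment and 1.763 in experiment 2. The FN arrays take part in this step only through the estimate of the spread. From 30' S to 3 h S the log2 fold change was 0.73 ± 0.26 (adjusted p = 0.282), and from -S to 30' S it was 0.42 (95% interval -0.20 to 1.04). Against FN the values were -0.60 ± 0.26 in -S (-1.22 to 0.02; adjusted p = 0.248), -0.18 in 30' S (-0.80 to 0.44) and 0.55 in 3 h S (-0.08 to 1.17; adjusted p = 0.311). Without the FN array of experiment 2, the value in -S was -0.89. That value rests on the FN array of experiment 1, in which the fall was a condition of naming ARR6. By signal, the order of the conditions of ARR6 was -S, 30' S, FN, 3 h S in experiment 1 and -S, FN, 30' S, 3 h S in experiment 2.

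**Figure D2:**
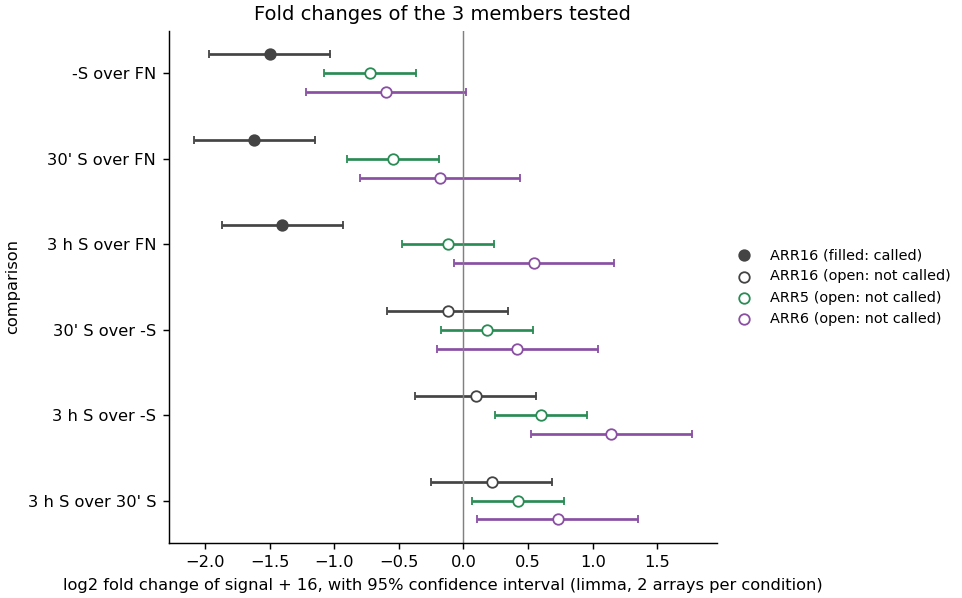
Log2 fold changes of signal + 16 for ARR16, ARR5 and ARR6 in the 6 comparisons (limma, 2 arrays per condition, bars are 95% confidence intervals; filled points are called, open points are not). ARR16 lay between -1.62 and -1.40 in the comparisons over FN and near 0 elsewhere, while ARR5 and ARR6 had their highest values, 0.60 and 1.15, in 3 h S over -S.

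ARR15, which with ARR7 acts in the shoot meristem and the embryonic root, was at the limit of detection. Its signals were 11.5, 10.8, 3.9 and 5.9 in the first experiment, from FN through -S and 30' S to 3 h S, and 14.5, 12.7, 8.2 and 11.6 in experiment 2. The FN array of experiment 2 was the only one at or above its floor, at 1.24 times the floor, and no fold change is given for these signals. The meristem genes WUS and CLV3 were below the floor as well.

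Over all 6 comparisons, the call count among the 3 members tested was 1 (ARR16, lower) in -S over FN, in 30' S over FN and in 3 h S over FN, where 1.42%, 1.83% and 0.56% of all probe sets tested were called. It was 0 in the 3 comparisons among starved and resupplied seedlings, which are 30' S against -S, 3 h S against -S and 3 h S against 30' S, where 0.00583%, 1.06% and 0.548% were called. In those 3 comparisons, limma gave 0, 2 and 2 members at an unadjusted p under 0.05, beside 509, 2368 and 2451 of all 17138 probe sets, and the methods' t-test none. In the test for any difference among the 4 conditions, 1.44% of probe sets were called and ARR16 was the called member (limma adjusted p = 0.028), with 0.117 for ARR5 and 0.174 for ARR6. The median log2 fold change of the 3 members was -0.72 in -S over FN and 0.60 in 3 h S over -S, beside 0.05 and -0.03 over all probe sets tested. Because 2 of the 3 were named through a list chosen for change in experiment 1, these counts and medians do not describe the family as a whole.

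The order of the conditions differed between the members. ARR16 and ARR5 were both lower in -S than in FN in each experiment, but at 3 h S ARR5 was at 0.756 and 1.068 of the FN signal, whereas ARR16 was at 0.276 and 0.403. ARR6 was above FN by then in both experiments. The 95% intervals of 3 h S over FN were -1.87 to -0.93 for ARR16, -0.48 to 0.23 for ARR5 and -0.08 to 1.17 for ARR6 on the log2 scale; the difference between genes was not itself tested. Over the 8 arrays, which share conditions and experiments, Pearson's r of the log2 values was 0.417 for ARR5 with ARR6, 0.492 for ARR5 with ARR16 and 0.167 for ARR6 with ARR16.

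The named genes most like each member were found among 10002 candidates by Pearson's r of log2(signal + 16) over the 8 arrays. For ARR16 they were AT3G17160 (r = 0.981), the thaumatin-like protein gene ATLP-1 (AT1G18250, r = 0.978) and AT4G28290 (r = 0.972). All 3 were highest on the FN arrays, although less steeply than ARR16: ATLP-1 had 191.0 and 149.0 in FN and between 96.6 and 121.1 on the other 6 arrays, a log2 fold change of -0.63 ± 0.14 in -S over FN (adjusted p = 0.0996). For ARR5 they were AT1G23410 (r = 0.986), AT1G54890 (r = 0.968) and AT1G27435 (r = 0.965). AT1G23410 was itself called in -S over FN (-1.08 ± 0.14 on the log2 scale, limma adjusted p = 0.0163) and in 3 h S over -S (0.87 ± 0.14, adjusted p = 0.0468), with signals of 116.2, 40.2, 54.1 and 91.3 in experiment 1 and 170.1, 82.4, 91.3 and 156.8 in experiment 2. For ARR6 they were AT5G25080 (r = 0.947), AT5G65900 and AT3G62970 (both r = 0.942), which like ARR6 were highest in 3 h S of experiment 1. These genes were picked for their likeness, and the correlations are descriptions.

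**Figure D3:**
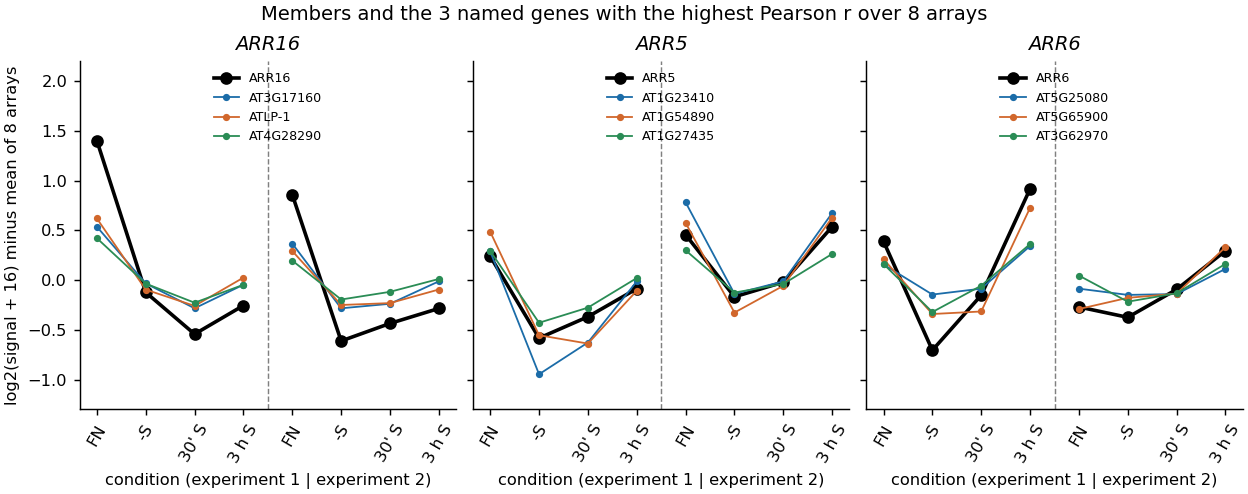
Log2(signal + 16) minus the gene's mean over 8 arrays, for ARR16, ARR5 and ARR6 (black) and for each the 3 named genes with the highest Pearson's r (coloured), in the 4 conditions of experiment 1 (left of the dashed line) and experiment 2 (right); each point is 1 array. The like genes of ARR16 have their peaks in FN, and those of ARR5 have their low points in -S and 30' S.

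The rest of the cytokinin pathway was examined through 62 further genes, from synthesis to late response, of which 12 could be named and 6 tested. None of the 6 was called in any of the 6 comparisons with limma; at an unadjusted p under 0.05 there were 4 in -S over FN, 4 in 30' S over FN, 2 in 3 h S over 30' S and 1 each in 3 h S over -S and 3 h S over FN. Over all 17138 probe sets, 3623, 4655, 2451, 2368 and 3192 were under the same limit in these comparisons. The methods' t-test gave none after adjustment, and 1 in -S over FN and 2 in 3 h S over -S before it, beside 531 and 706 of all probe sets. Their median log2 fold change was 0.68 in -S over FN and -0.15 in 3 h S over -S, both opposite in sign to the medians of the type-A members. In 3 h S over -S, CRF5 and UGT76C2 were positive and AHK3, ARR2, LOG5 and UGT76C1 negative. AHK3 and ARR2 were, however, named only through the study's table of genes changed in experiment 1. LOG5 and CRF5 were named only through the part of the study's table of all signals that was at hand. The genes named here by that route all had a higher signal in -S than in FN of experiment 1. The sign in -S over FN therefore follows in part from how the genes were named. The step from -S to 3 h S shares the -S array of experiment 1 and is not independent of that naming.

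Among receptors, the cytokinin receptor gene AHK3 had signals of 56.7, 137.0, 167.0 and 127.7 in the first experiment (again from FN to 3 h S), and 110.4, 140.9, 152.8 and 106.1 in experiment 2. The type-B activator ARR2 had 44.9, 112.9, 128.8 and 88.7, and then 93.9, 116.5, 112.4 and 85.4. Both were lowest in the FN array of experiment 1 and differed less between conditions in experiment 2. The study cites the table that named them for genes changed specifically in experiment 1. The smaller difference between -S and FN in experiment 2 therefore follows in part from the naming. Their log2 fold changes in -S over FN were 0.69 ± 0.25 for AHK3 (adjusted p = 0.193) and 0.68 ± 0.25 for ARR2 (adjusted p = 0.198).

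LOG5 belongs to the family of enzymes that release active cytokinin from its riboside phosphates. Its signals were 26.3, 128.0, 91.4 and 25.1 in experiment 1 and 31.2, 52.3, 64.9 and 20.6 in experiment 2. It was high in -S and 30' S and low in FN and 3 h S, with no overlap between these sets of arrays, the reverse of ARR5 and ARR6 in the step from -S to 3 h S. This grouping of arrays was read from the signals and was not tested, and the share of all probe sets that separate likewise was not counted. All genes named by the route of LOG5 rose from FN to -S in experiment 1, so this rise was treated as a condition of naming LOG5. The step from -S to 3 h S was -1.35 ± 0.27 on the log2 scale (limma adjusted p = 0.0841). This step shares the -S array of experiment 1 with that rise and is not independent of the naming.

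The cytokinin response factor gene CRF5 had 4.3 in FN of experiment 1, below the floor, and between 27.0 and 42.6 on the other 7 arrays. The glucosyltransferases UGT76C1 and UGT76C2, which inactivate cytokinins, were named by the platform annotation and varied little, from 42.1 to 61.0 and from 66.7 to 117.8. Their log2 fold changes in -S over FN were 0.19 (95% interval -0.13 to 0.51) and 0.11 (-0.20 to 0.41). The type-A gene ARR17, the closest relative of ARR16, was below the floor on all 8 arrays, as were the type-B genes ARR18 and ARR19, the kinase gene CKI1, the phosphotransfer gene AHP4, the synthesis gene IPT1 and the response regulator genes ARR22 and ARR23, which were added after the annotation had been seen. Whether probes of ARR5 and ARR6, or of ARR16 and ARR17, also bind the transcript of the other was not tested.

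**Figure D4:**
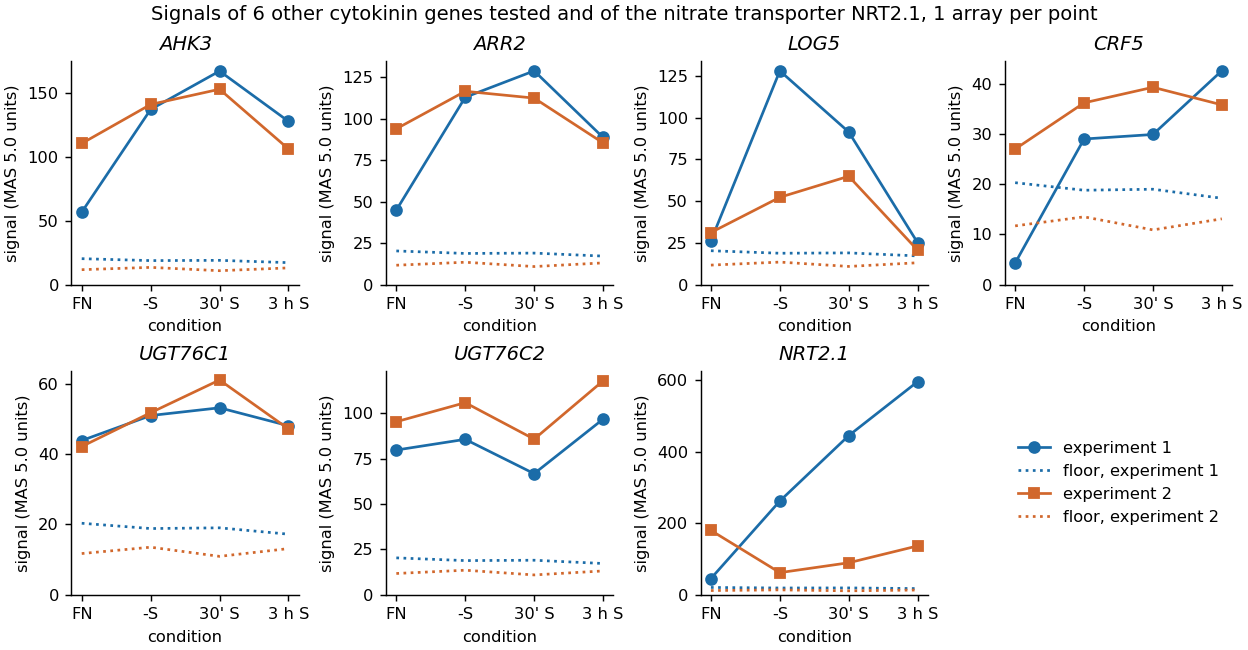
MAS 5.0 signals (linear axes from 0) of the 6 other cytokinin genes tested and of the nitrate transporter gene NRT2.1 in FN, -S, 30' S and 3 h S; each point is 1 array (circles experiment 1, squares experiment 2, dotted lines the floors). LOG5 was high in -S and 30' S, and NRT2.1 was higher in -S than in FN in experiment 1 and lower in experiment 2.

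Of 11 nitrate-responsive genes, 1 could be named, the high-affinity nitrate transporter gene NRT2.1. It was named only through the same part of the study's table of all signals as LOG5 and CRF5. As all genes named by that route rose from FN to -S in experiment 1, its rise there was treated as a condition of its being named. Its signal was 45.2, 261.8, 444.6 and 595.4 in experiment 1 and 179.7, 61.7, 89.3 and 136.4 in experiment 2. It was thus higher in -S than in FN in experiment 1 and lower in experiment 2, and the log2 fold change was 0.42 ± 0.86 (adjusted p = 0.795). The part of nitrogen supply in any of these differences was not tested here. From separate starvation data, the study lists ARR16 among genes that responded to nitrate, phosphate and sulfate starvation. It also reports a lower nitrate content in -S seedlings of experiment 1.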

How the data were processed

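RNA of 8 seedling samples was hybridized to ATH1 arrays. The authors deposited MAS 5.0 signal intensity values, scaled per array on a linear scale, as 1 table; the sources used here do not give the scaling target or the detection settings. The 2% trimmed mean was 99.4 on every array. An array's floor is the signal at the rank given by the share of absent calls that the study lists for it, and the number of arrays limits the precision. Probe sets were named by the platform annotation or, where it names none, by identifier pairs in the study's tables; the text names, from probe sets with 1 gene, the members, the genes of the lists and the 3 genes most like each tested member. Columns of ratios in the study's tables were not used.

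Conditions and experiments came from the sample titles. limma 3.58.1 in R 4.3.3 was fitted to log2(signal + 16) for the 17138 probe sets that reached the floor on 2 or more arrays, with terms for condition and the replicate block (experiment), 3 residual and 4.0 prior degrees of freedom. The experiment numbers mark shared experiments; deviations of same-numbered arrays correlated at 0.60 to 0.71 among -S, 30' S and 3 h S and at 0.08 to 0.31 with FN. The p-values of 6 pairwise comparisons and a moderated F test were adjusted after Benjamini and Hochberg, and called under 0.05. The fit was tested on simulated data with equal noise on all arrays and an experiment shift shared by all conditions. That setting does not cover the weaker sharing with FN. Alternatives changed the offset, filter, normalization, block, arrays, prior and test. Members and lists were chosen with earlier results of these data known. Python 3.11.15, pandas 2.3.3 and numpy 2.4.6 were used for the other steps, and matplotlib 3.10.9 for the plots.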

Additional observations from a re-analysis of the deposited data

How the results depend on the processing

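Of 393 values of ARR5, ARR6 and ARR16 under the alternatives, 335 kept direction and side of the threshold, 36 were no longer called, 13 became called and 9, none of them called, changed sign. ARR16 was called under 11 of 19 alternatives in -S over FN (adjusted p from 0.000622 to 0.876), 12 of 19 in 30' S over FN (0.000369 to 0.786) and 7 of 19 in 3 h S over FN (0.00101 to 0.922), and its log2 fold change lay between -1.85 and -1.05 in all of them.

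The count of called members, 1 in the comparisons over FN and in the test for any difference, fell to 0 with an offset of 1 in -S over FN, 3 h S over FN and the test for any difference, with an offset of 64 in 3 h S over FN, and without the filter in all 4. Fitting the compared conditions alone, or using the methods' t-test, gave 0 in -S, 30' S and 3 h S over FN. Without the replicate block it was 0 in 3 h S over FN (ARR16, adjusted p = 0.128) and in the test for any difference, and no other count of members changed. Fitted alone, 3 h S over -S called 2 members (ARR5, ARR6) and 3 h S over 30' S called 1 (ARR6), against 0. Among the other cytokinin genes, LOG5 was called in both of these comparisons when fitted alone, lower in 3 h S. Leaving out 1 array at a time gave 0 to 3 called members in -S over FN, 0 to 2 in 30' S over FN, 0 to 1 in 3 h S over FN, 0 to 2 in 3 h S over -S and 0 to 3 for any difference; the highest counts were seen without an FN array. The lone array left is then assumed to vary like the other conditions. Calls over all probe sets ranged from 0 to 4860 in -S over FN, 0 to 6017 in 30' S over FN, 0 to 4639 in 3 h S over FN, 0 to 1195 in 3 h S over -S, 0 to 10 in 30' S over -S, 0 to 1299 in 3 h S over 30' S and 51 to 5581 for any difference. The cause was not tested.

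The changes of sign came from leaving out 1 array: ARR5 in 3 h S over FN ranged from -0.271 to 0.026 on the log2 scale, ARR6 in 30' S over FN from -0.473 to 0.109, and ARR16 from -0.352 to 0.109 in 30' S over -S, -0.069 to 0.264 in 3 h S over -S and -0.012 to 0.449 in 3 h S over 30' S. For the other cytokinin genes, calls in -S and 30' S over FN appeared only without the FN array of experiment 2. The lone FN array is then that of experiment 1. A rise in that experiment was part of how AHK3 and ARR2 were named, and was treated as such for LOG5 and CRF5. With signals near the floor of 10.9 to 20.3, ARR15 gives no measured change; in the fit without the filter its lowest adjusted p was 0.156 (30' S over FN).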
